A study of Mus musculus with 16 samples.

Results

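The genes described here are 10 imprinted genes with roles in growth control: H19, Igf2, Igf2r, Meg3, Dlk1, Peg3, Mest, Cdkn1c, Grb10 and Plagl1. An imprinted gene is transcribed mainly from the copy inherited from 1 parent. In most mouse tissues H19, Igf2r, Meg3, Cdkn1c and Grb10 are expressed from the maternal copy, and Igf2, Dlk1, Peg3, Mest and Plagl1 from the paternal copy. The arrays read total RNA, so the parental copy is background here and was not measured. By the gene name column of the scanner files alone, 6 of the 10 genes were found, on 9 probes. When the RefSeq accession of each probe was also read, all 10 genes were found, on 19 of the 60273 gene probes. At least 1 probe of each gene passed the filter on dim signals, so all 10 are among the 29229 genes tested.

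The RNA came from CGR8-Myh6-GFP mouse embryonic stem cells, a single reporter line in which green fluorescent protein is driven by the cardiac Myh6 promoter, differentiated towards heart cells without sorting. On day 4 the cultures received the vehicle DMSO (n = 2), the hawthorn leaf and flower extract WS1442 at 0.25 mg/ml (n = 3) or the methanol (MeOH) eluate of that extract at 0.1 mg/ml (n = 3). They were harvested after 6 h or 24 h, which gives 6 groups and 16 cultures, each read on 1 single-colour array. All arrays of a time point lie on 1 slide, so time and slide cannot be told apart for a level, while treated and DMSO cultures of a time point share their slide.

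Imprinted growth genes are known as a network of opposing roles. Igf2 is a secreted growth factor, Igf2r removes it from the cell surface, and the H19 transcript shares enhancers with Igf2. Dlk1 is a membrane protein related to the Notch ligands and Meg3 is a long noncoding RNA of the same domain. Cdkn1c arrests the cell cycle, Grb10 dampens insulin and IGF receptor signals, and Plagl1 and Peg3 encode zinc finger transcription factors. Mest belongs to the hydrolase fold family and is widely expressed in embryonic mesoderm.

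For 4 of the genes different probes gave different answers, so the probes are shown first. H19 and Meg3 are noncoding and their probes are printed whole. For the protein-coding genes on which the 24 h results turn, the first 30 bases are printed. All are written 5′ to 3′ as listed in the scanner files, in lower case because no base is singled out.
H19 probe 1: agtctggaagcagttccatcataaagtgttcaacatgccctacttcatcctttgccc
H19 probe 2: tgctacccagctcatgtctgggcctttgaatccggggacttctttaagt
Meg3 probe 1: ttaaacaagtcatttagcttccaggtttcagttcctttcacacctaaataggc
Meg3 probe 2: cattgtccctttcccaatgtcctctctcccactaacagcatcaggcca
Meg3 probe 3: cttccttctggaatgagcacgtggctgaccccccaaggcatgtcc
Dlk1 probe 1: tttttgtggtggagtttgctctattgtgtg
Peg3 probe 1: gtgtgcacccagaccccttgagactgattg
Peg3 probe 2: atcttcagtgtttgggtaacaaactttacg
Mest probe 1: agtttctgtggactttattaaaatatttag
Mest probe 2: ggtgcgactagatcgtgccgcgcagtgtgg

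The array design places 9 of the 19 probes on mouse build mm9. H19 probe 1 was listed at chr7:149761492-149761551 on the minus strand and H19 probe 2 at chr7:149762173-149762232 on the same strand. Meg3 probe 1 was listed at chr12:110783470-110783529 on the plus strand, for the cDNA clone AK157178, while Meg3 probes 2 and 3 were designed on the RefSeq transcripts NR_003633.2 and NR_027652.1. Peg3 probe 2 was listed at chr7:6657078-6657137 on the minus strand and Mest probe 2 at chr6:30688773-30688832 on the plus strand. No mm9 annotation was used, so exon or intron is not given for these positions. Of the 19 probes, 3 did not pass the filter: Grb10 probe 2 was well above background on 0 of the 16 arrays, Plagl1 probe 2 on 2 and Peg3 probe 3 on 3.

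Signals are log2 values of the scanner's processed signal after quantile normalization, and a change is a difference of log2 group means with its standard error (SE). A gene was called when limma's adjusted p, by Benjamini-Hochberg over all 29229 genes, was under 0.05, and each gene was read from its brightest probe. Between 55.1% and 63.0% of the gene spots were well above background on an array, 0 spots were saturated, and the number of arrays limits the precision. The RNA integrity number lay between 8.6 and 10, with 8.6 for WS1442 24 h replicate 2. In RNA from whole cultures, fewer cells of a type and less RNA per cell cannot be told apart. Nothing in the labels says how the replicate cultures were kept apart, so p-values measure the spread between these samples. With so few cultures per group, groups can fail to overlap by chance. At 6 h treated and DMSO cultures did not overlap for 5 of the 10 members with WS1442 and 6 with the MeOH eluate. At 24 h the counts were 6 and 7. The matching share of all genes is not given, so a lack of overlap describes the values and is no test.

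Dlk1, Mest and Peg3, all expressed from the paternal copy, fell in both treatments at 24 h, by 1.56-fold to 2.64-fold for Dlk1, 1.52-fold to 1.64-fold for Mest and 1.17-fold to 1.23-fold for Peg3. At 6 h no member was called lower in either treatment, and Meg3, read by its brightest probe, rose 1.40-fold with WS1442 and 1.68-fold with the MeOH eluate. H19, Igf2 and Grb10 were called in no comparison at their brightest probes. After 6 h of WS1442, 3 of the 10 members were called, where 5.56% of all genes were. After 6 h of MeOH eluate 3 of 10 were called, where 17.1% of all genes were. The 24 h counts were 5 of 10 with WS1442, against 24.7% of all genes, and 4 of 10 with the MeOH eluate, against 18.2%.

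**Figure D1:**
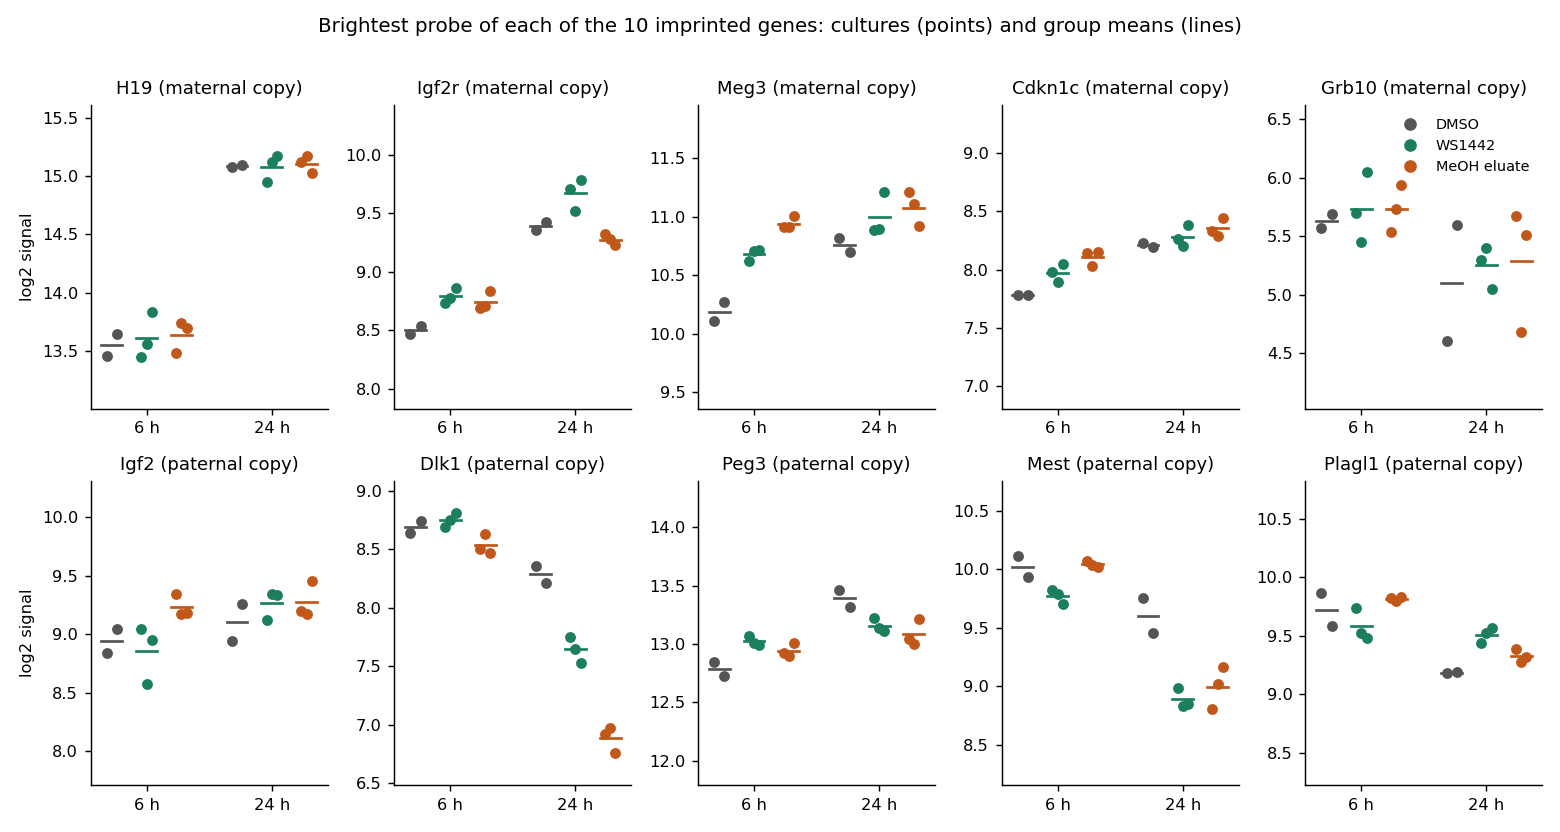
Log2 signal of the brightest probe of each gene (vertical axis, the same span in each panel) in every culture at 6 h and 24 h, with points for cultures and lines for group means. Dlk1 in the MeOH eluate cultures at 24 h lies between 6.76 and 6.97, below the WS1442 cultures at 7.53 to 7.75 and the DMSO cultures at 8.21 and 8.36.

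Split by direction, the members called were 3 higher and 0 lower with WS1442 at 6 h, where 4.14% of all genes were higher and 1.42% lower. The MeOH eluate at 6 h also gave 3 higher and 0 lower, where 8.66% of all genes were higher and 8.42% lower. With WS1442 at 24 h, 2 members were higher and 3 lower, beside 12.9% and 11.9% of all genes. With the MeOH eluate at 24 h, 1 was higher and 3 lower, beside 9.62% and 8.61% of all genes. Of all genes called at 24 h, the share that were higher was 52.1% for WS1442 and 52.8% for the MeOH eluate, and it became 41.4% and 42.5% when arrays were scaled to their 75th percentile instead. The median change over the 10 members was 0.08 and 0.13 at 6 h and 0.11 and 0.09 at 24 h, for WS1442 and the MeOH eluate in that order, against -0.01, 0.00, 0.05 and 0.01 over all genes.

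By parental copy, the 5 maternally expressed members had a median change of 0.19 and 0.24 at 6 h and of 0.15 and 0.15 at 24 h, again WS1442 first. The 5 paternally expressed members had medians of -0.09 and 0.09 at 6 h and of -0.23 and -0.30 at 24 h. No maternally expressed member was called lower against DMSO at its brightest probe, although the dimmer H19 probe was called lower at 24 h in both treatments. Among the paternally expressed members at 24 h, Plagl1 was called higher with WS1442 and Igf2 was not called. The 24 other paternally expressed imprinted genes tested did not share the fall, with 24 h medians of 0.10 and 0.04. Of these, 5 were called higher and 2 lower with WS1442, and 5 and 4 with the MeOH eluate. For 21 other maternally expressed genes the 24 h medians were 0.16 and 0.14. There 3 were higher and 4 lower with WS1442, and 2 and 3 with the MeOH eluate. The 10 members were chosen with earlier results of these data known, so these counts describe the genes and carry no test of the list.

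**Figure D2:**
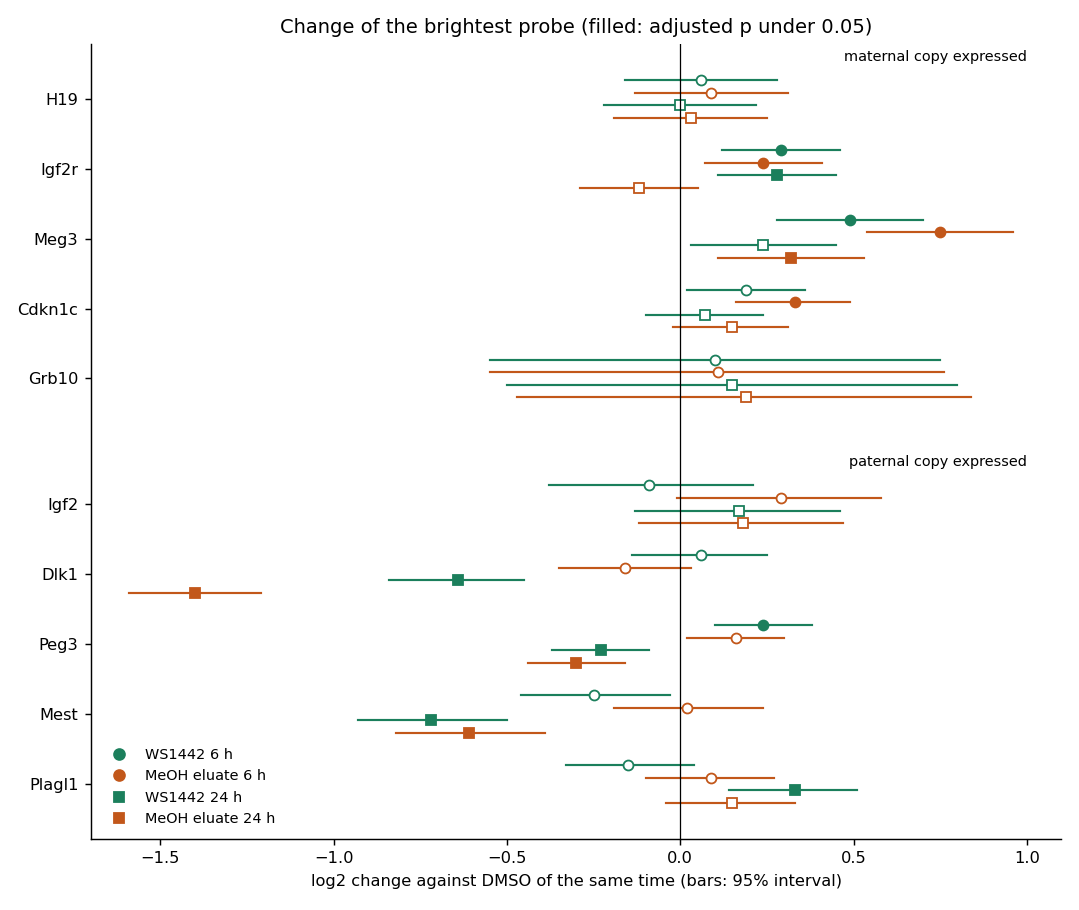
Log2 change against DMSO of the same time for the 10 members, with 95% intervals, circles for 6 h, squares for 24 h and filled symbols for adjusted p under 0.05. Dlk1, Peg3 and Mest lie left of 0 at 24 h for both treatments, with Dlk1 at -1.40 in the MeOH eluate.

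Dlk1 gave the largest change among the brightest probes of the 10 members. In the DMSO cultures at 24 h the Dlk1 log2 signal was 8.36 and 8.21, and in the WS1442 cultures it was 7.75, 7.65 and 7.53. In the MeOH eluate cultures it was 6.92, 6.97 and 6.76. The 3 groups do not overlap, with DMSO the highest and the MeOH eluate the lowest. The change was -0.64 (SE 0.09, limma adjusted p = 0.000171) with WS1442 and -1.40 (SE 0.09, limma adjusted p = 1.32e-07) with the MeOH eluate. At 6 h the Dlk1 signal was 8.64 and 8.74 with DMSO, 8.69, 8.75 and 8.81 with WS1442, and 8.50, 8.63 and 8.47 with the MeOH eluate. Those changes of 0.06 and -0.16 did not pass the test (limma adjusted p = 0.809 and 0.251). The effect at 24 h was lower than the effect at 6 h by an interaction term of -0.70 (limma adjusted p = 0.0042) for WS1442 and of -1.24 (limma adjusted p = 2.8e-05) for the MeOH eluate.

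Meg3, the maternally expressed neighbour of Dlk1, was higher than DMSO at its brightest probe. At 6 h probe 1 read 10.11 and 10.27 with DMSO, 10.62, 10.71 and 10.72 with WS1442, and 10.91, 10.91 and 11.01 with the MeOH eluate, with no overlap between the 3 groups. The changes were 0.49 (SE 0.10, limma adjusted p = 0.0109) and 0.75 (SE 0.10, limma adjusted p = 0.000125). After 24 h the signal was 10.82 and 10.70 with DMSO, 10.89, 10.90 and 11.21 with WS1442, and 11.21, 11.11 and 10.92 with the MeOH eluate. The 24 h changes were 0.24 (limma adjusted p = 0.0902) and 0.32 (SE 0.10, limma adjusted p = 0.0321). Both treated groups lie above DMSO and overlap each other. The MeOH eluate call at 24 h was kept in 4 of 11 other settings and in 12 of 16 fits with a culture left out. It was lost without DMSO 24 h replicate 1 (0.38, limma adjusted p = 0.0689) or 2 (0.26, limma adjusted p = 0.171) and without MeOH eluate 24 h replicate 1 (limma adjusted p = 0.119) or 2 (limma adjusted p = 0.0765), and with no filter (limma adjusted p = 0.0626) or the mean of the kept probes (0.19, limma adjusted p = 0.0912).

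The other Meg3 probes passed the probe-by-probe test in neither treatment at 6 h. Probe 2 read 10.37 and 10.03 with DMSO at 6 h, 9.77, 9.77 and 9.80 with WS1442, and 9.96, 9.99 and 10.04 with the MeOH eluate. Its changes of -0.42 and -0.20 did not pass (limma adjusted p = 0.0569 and 0.275), and the WS1442 value has the opposite sign to that of probe 1. Probe 3 changed by -0.03 (limma adjusted p = 0.953) with WS1442. With the MeOH eluate it read 9.30, 9.21 and 9.28 against 8.92 and 8.91 with DMSO, so the groups do not overlap, and its change was 0.35 (95% interval 0.02 to 0.68, limma adjusted p = 0.149). With the mean of the 3 probes in place of the brightest, the WS1442 change at 6 h was 0.01 (limma adjusted p = 0.96), and the MeOH eluate change was 0.30 and was still called (limma adjusted p = 0.0131). Without DMSO 6 h replicate 1 the WS1442 change was 0.41 and was not called (limma adjusted p = 0.178), while the MeOH eluate call at 6 h stood with any 1 of the 16 cultures left out.

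Mest fell at 24 h. The brightest probe read 9.75 and 9.45 with DMSO, 8.98, 8.83 and 8.85 with WS1442, and 8.80, 9.02 and 9.16 with the MeOH eluate. Every treated culture lies below both DMSO cultures, and the treated groups overlap. The changes were -0.72 (SE 0.10, limma adjusted p = 0.000197) and -0.61 (SE 0.10, limma adjusted p = 0.000629). At 6 h the values were 10.11 and 9.93 with DMSO, 9.82, 9.79 and 9.70 with WS1442, and 10.07, 10.04 and 10.02 with the MeOH eluate, and neither change passed the test (-0.25 and 0.02, limma adjusted p = 0.185 and 0.911).

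The dimmer Mest probes fell or did not pass. Probe 2 was well above background on 13 of 16 arrays and read 5.46 and 5.44 with DMSO at 24 h. With WS1442 it read 3.90, 4.34 and 3.19, the last not well above background, and with the MeOH eluate 4.67, 4.43 and 4.36. Its changes were -1.64 (SE 0.32, limma adjusted p = 0.00191) and -0.96 (SE 0.32, limma adjusted p = 0.0504). Probe 3, well above background on 9 arrays, changed by -0.47 and -0.06 with a standard error of 0.55. When the 3 kept probes were averaged, the MeOH eluate change was -0.54 and did not pass (limma adjusted p = 0.121).

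Peg3 fell in both treatments at 24 h, while its values at 6 h lay above DMSO at the brightest probe. The brightest probe read 12.85 and 12.73 with DMSO at 6 h, 13.07, 13.01 and 12.99 with WS1442, and 12.92, 12.90 and 13.01 with the MeOH eluate. The WS1442 change of 0.24 (SE 0.07) was just inside the threshold (limma adjusted p = 0.0489) and was kept in 5 of the 16 fits with a culture left out and in 3 of 11 other settings. In the probe-by-probe fit it was not called (limma adjusted p = 0.0535). The MeOH eluate change of 0.16 did not pass (limma adjusted p = 0.111). Peg3 probe 2 changed at 6 h by 0.25 (limma adjusted p = 0.233) with WS1442 and by 0.00 (limma adjusted p = 0.995) with the MeOH eluate. By 24 h the values were 13.46 and 13.32 with DMSO, 13.22, 13.14 and 13.11 with WS1442, and 13.04, 13.00 and 13.21 with the MeOH eluate. All treated cultures lie below both DMSO cultures. The changes were -0.23 (SE 0.07, limma adjusted p = 0.0191) and -0.30 (SE 0.07, limma adjusted p = 0.00402).

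Without DMSO 24 h replicate 1 neither 24 h change of Peg3 was called at its brightest probe (-0.16, limma adjusted p = 0.232, and -0.23, limma adjusted p = 0.0795). Leaving out WS1442 24 h replicate 2 or 3 also ended the WS1442 call (-0.22, limma adjusted p = 0.0504, and -0.21, limma adjusted p = 0.0676). Peg3 probe 2 fell further, from 11.86 and 11.58 with DMSO to 11.12, 10.99 and 10.86 with WS1442 and 11.11, 11.21 and 11.53 with the MeOH eluate. Its changes were -0.73 (SE 0.11, limma adjusted p = 0.000286) and -0.44 (SE 0.11, limma adjusted p = 0.0117). The difference between the 24 h and the 6 h effect at the brightest probe was -0.47 (limma adjusted p = 0.00613) for WS1442 and -0.46 (limma adjusted p = 0.00572) for the MeOH eluate.

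H19 was bright and steady at one probe and lower at the other. Probe 1 read 13.45 to 13.84 over the 8 cultures at 6 h and 14.95 to 15.17 over the 8 cultures at 24 h. Its changes against DMSO lay between 0.00 and 0.09 in the 4 comparisons, and the 95% interval at 24 h ran from -0.22 to 0.22 with WS1442 and from -0.19 to 0.25 with the MeOH eluate. Probe 2 at 24 h read 12.04 and 11.89 with DMSO, 11.24, 11.43 and 11.43 with WS1442, and 11.46, 11.65 and 11.42 with the MeOH eluate. It fell by 0.60 (SE 0.10, limma adjusted p = 0.000755) and by 0.46 (SE 0.10, limma adjusted p = 0.00531). At 6 h its changes of -0.06 and -0.08 did not pass.

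**Figure D3:**
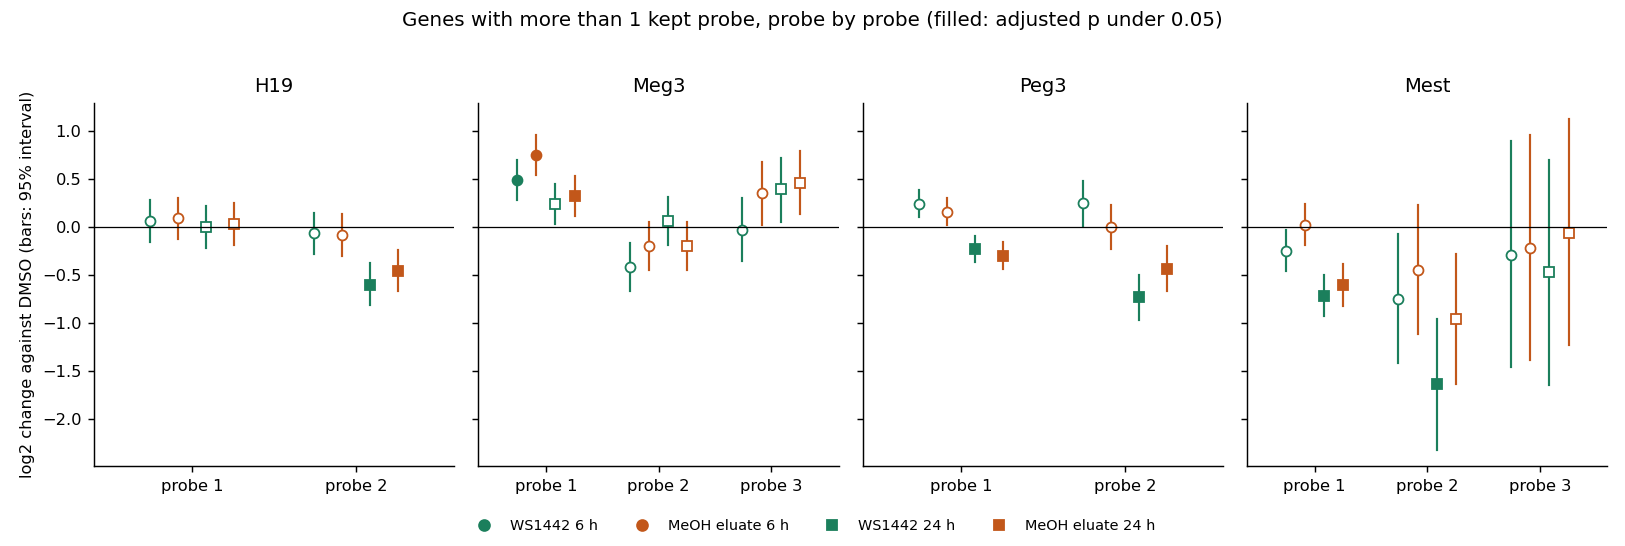
Log2 change against DMSO, with 95% intervals, for every kept probe of H19, Meg3, Peg3 and Mest, circles for 6 h, squares for 24 h and filled symbols for adjusted p under 0.05. H19 probe 2 fell at 24 h where probe 1 stayed at 0.00 and 0.03, and Meg3 probe 1 rose at 6 h where probe 2 lay at -0.42 and -0.20.

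In a fit of every kept probe on its own, 36718 in all, 1 member probe was called after 6 h of WS1442, beside 4.65% of all probes, and 3 after 6 h of MeOH eluate, beside 16.2%. The 24 h fit called 8 member probes with WS1442, beside 23.4%, and 6 with the MeOH eluate, beside 17.1%. All 19 member probes but the 3 that did not pass the filter were in this fit. H19, Meg3, Peg3 and Mest each had more than 1 probe in it, so these are not counts of genes. Apart from probes of Dlk1, the member probes called lower at 24 h were H19 probe 2, both kept Peg3 probes, Mest probe 1 and, with WS1442, Mest probe 2.

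The ligand Igf2 was not called. It read 8.84 and 9.04 with DMSO at 6 h, 9.04, 8.57 and 8.95 with WS1442, and 9.34, 9.17 and 9.18 with the MeOH eluate. The 3 MeOH eluate cultures lie above the DMSO cultures, and the change of 0.29 (95% interval -0.01 to 0.58) had a limma adjusted p of 0.174. At 24 h the changes were 0.17 and 0.18, each with an SE of 0.14, and the groups overlap.

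Igf2r, the receptor that clears Igf2, was slightly higher in both treatments at 6 h and with WS1442 at 24 h. It read 8.47 and 8.54 with DMSO at 6 h, 8.73, 8.78 and 8.86 with WS1442, and 8.69, 8.71 and 8.84 with the MeOH eluate. Both changes, 0.29 (SE 0.08, limma adjusted p = 0.0498) and 0.24 (SE 0.08, limma adjusted p = 0.0492), stand just inside the threshold, and each kept its call in 4 of 16 fits with a culture left out. After 24 h it read 9.36 and 9.43 with DMSO, 9.71, 9.52 and 9.79 with WS1442, and 9.32, 9.28 and 9.23 with the MeOH eluate. The WS1442 change was 0.28 (SE 0.08, limma adjusted p = 0.0186) and the MeOH eluate change was -0.12 (limma adjusted p = 0.364). All MeOH eluate cultures lie below both DMSO cultures at 24 h. The WS1442 call at 24 h was lost without DMSO 24 h replicate 1 (0.24, limma adjusted p = 0.15), WS1442 24 h replicate 1 (0.26, limma adjusted p = 0.051) or WS1442 24 h replicate 3 (0.22, limma adjusted p = 0.0786).

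Cdkn1c, the cyclin-dependent kinase inhibitor p57, rose with the MeOH eluate at 6 h. The DMSO cultures both read 7.78, the WS1442 cultures 7.98, 7.89 and 8.05, and the MeOH eluate cultures 8.14, 8.03 and 8.15. The changes were 0.19 (SE 0.08, limma adjusted p = 0.181) and 0.33 (SE 0.08, limma adjusted p = 0.0113). All treated cultures lie above DMSO at 6 h. The MeOH eluate call was lost without DMSO 6 h replicate 1 (0.32, limma adjusted p = 0.0832) or replicate 2 (0.33, limma adjusted p = 0.0578). At 24 h the changes were 0.07 and 0.15 and did not pass.

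Plagl1, a transcription factor known to bind other imprinted loci, rose with WS1442 at 24 h. It read 9.18 and 9.19 with DMSO, 9.44, 9.52 and 9.57 with WS1442, and 9.39, 9.28 and 9.32 with the MeOH eluate, so both treated groups lie above DMSO. The changes were 0.33 (SE 0.09, limma adjusted p = 0.013) and 0.15 (SE 0.09, limma adjusted p = 0.288). Without DMSO 24 h replicate 1 the WS1442 change was 0.32 and was not called (limma adjusted p = 0.08). At 6 h the Plagl1 changes were -0.15 and 0.09.

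Grb10 was the dimmest member, with values from 4.60 to 6.05 over the 16 arrays. Its changes lay between 0.10 and 0.19 with an SE of 0.31, so that 95% intervals reached from -0.55 to 0.84. No change of Grb10 was detectable at this spread.

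The 2 preparations were also set against each other, at doses that differ (0.25 mg/ml of WS1442 and 0.1 mg/ml of the MeOH eluate), and both share the DMSO cultures in the values above. At 6 h, 0 of the 10 members differed by limma's adjusted p, where 12.2% of all genes did, although 5 had an unadjusted p under 0.05 and 4 by the methods' t-test. Igf2 was higher in the MeOH eluate by 0.38 (95% interval 0.11 to 0.64, limma adjusted p = 0.061). At 24 h 2 of the 10 differed, where 14.6% of all genes did. Dlk1 was lower in the MeOH eluate than in WS1442 by a difference of -0.76 (95% interval -0.93 to -0.59, limma adjusted p = 7.6e-05). The difference for Igf2r was -0.40 (95% interval -0.55 to -0.25, limma adjusted p = 0.00209). Both calls stood with any 1 culture left out. For Mest the difference was 0.11 (95% interval -0.09 to 0.30) and for Peg3 it was -0.08 (95% interval -0.20 to 0.05), neither past the threshold.

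Whether an effect differed between 6 h and 24 h was tested as an interaction. For WS1442, 4 of the 10 members were called, where 12.7% of all genes were: Dlk1, Peg3 and Mest with a lower effect at 24 h and Plagl1 with a higher one. For the MeOH eluate 3 were called, where 7.71% of all genes were: Dlk1, Peg3 and Mest, all with a lower effect at 24 h.

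Several members are neighbours of each other or of other imprinted genes. In the RefSeq annotation no protein-coding gene starts between Dlk1 and Meg3 or between H19 and Igf2, and 8 protein-coding genes lie between Igf2 and Cdkn1c. Of 47 other imprinted genes listed, 45 were tested. With WS1442 at 6 h, 7 of them rose and 1 fell, and with the MeOH eluate at 6 h 12 rose and 8 fell. At 24 h the counts were 8 and 6 with WS1442 and 7 and 7 with the MeOH eluate. Their median changes, in the order used above, were 0.10, 0.14, 0.12 and 0.09, and the background shares given for all genes apply to them as well.

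In the domain of Dlk1 and Meg3, the maternally expressed noncoding RNA Rian rose at 6 h by 0.26 (limma adjusted p = 0.0225) and 0.43 (limma adjusted p = 0.000235), and not at 24 h (-0.04 and 0.17). Dio3, the deiodinase that inactivates thyroid hormone and lies at the far end of the domain, rose by 1.75 with the MeOH eluate at 6 h (limma adjusted p = 0.000125). Its other changes, 0.52 with WS1442 at 6 h and -0.50 and -0.39 at 24 h, did not pass. Mirg read 0.30 and 0.43 at 6 h and was not called. Rian and Mirg, and Usp29, Kcnq1ot1 and Cd81 below, are named as neighbours of the members, a choice made after their values were seen.

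In the neighbourhood of Cdkn1c, the placental growth repressor Phlda2 rose at 6 h by 0.42 (limma adjusted p = 0.0133) and 0.97 (limma adjusted p = 4.07e-06), and fell at 24 h by 0.73 (limma adjusted p = 5.85e-05) and 0.80 (limma adjusted p = 1.55e-05). The noncoding RNA Kcnq1ot1, which silences this domain on the paternal chromosome, rose at 6 h by 0.64 and 0.59 (limma adjusted p = 0.0299 and 0.0188). The membrane protein gene Cd81 rose in all 4 comparisons, by 0.31 to 0.36. Osbpl5 rose in 3 of them, by 0.31 with the MeOH eluate at 6 h and by 0.61 and 0.74 at 24 h. Slc22a18 rose by 0.64 with the MeOH eluate at 6 h, just inside the threshold (limma adjusted p = 0.0488).

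Beside Peg3, the adjoining gene Usp29 changed by -0.25 with WS1442 at 24 h (limma adjusted p = 0.102) and fell by 0.49 with the MeOH eluate (limma adjusted p = 0.00364). Beside Mest, the coat protein gene Copg2 fell by 0.57 with the MeOH eluate at 6 h and by 0.47 and 0.29 at 24 h. Airn, the antisense transcript of Igf2r, was called in no comparison.

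**Figure D4:**
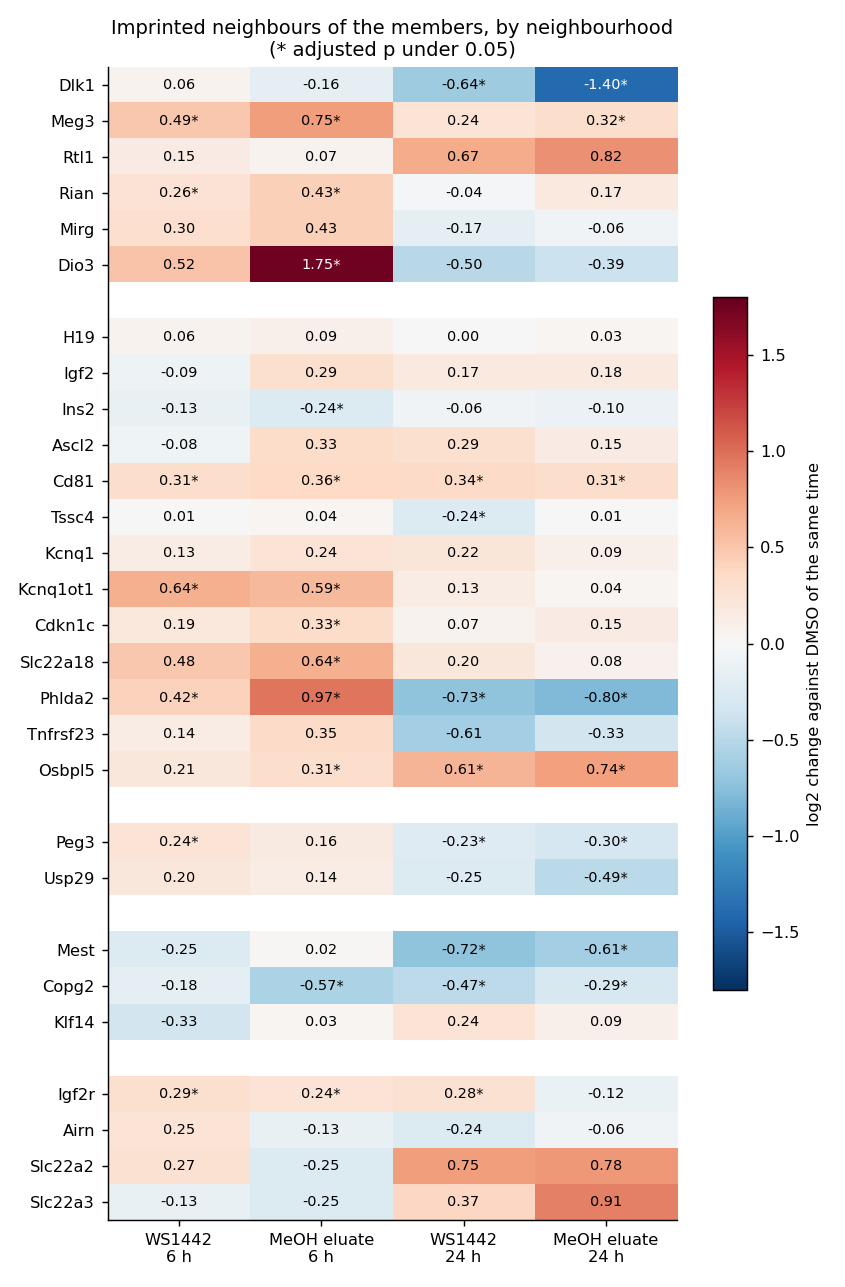
Log2 change against DMSO (colour and printed value, asterisk for adjusted p under 0.05) of members and of their imprinted neighbours, grouped by neighbourhood, for the 4 comparisons. In the Dlk1 block, Dlk1 is lowest at 24 h (-0.64 and -1.40) and Dio3 highest at 6 h with the MeOH eluate (1.75), and Phlda2 changes sign between the times.

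Elsewhere among imprinted genes, Nap1l5, a paternally expressed gene of the nucleosome assembly protein family, rose at 24 h by 0.86 (limma adjusted p = 0.0284) and 1.32 (limma adjusted p = 0.00251), although only 1 of the 2 DMSO arrays measured it above background. Impact, a regulator of translation under amino acid stress, rose in all 4 comparisons, by 0.29 to 0.65. The noncoding Peg13 fell in all 4, by 0.31 to 0.70. Magel2 fell by 0.88 with the MeOH eluate at 6 h (limma adjusted p = 0.0417) and Asb4 fell by 0.65 with it at 24 h (limma adjusted p = 0.0076).

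The wider insulin-like growth factor system was read from lists of its parts. Of 9 ligand, receptor and adaptor genes besides the members, 8 were tested, of which 1 rose in each of the 4 comparisons, 0 fell at 6 h and 1 fell in each at 24 h. Over all genes the share that rose was 4.14% with WS1442 and 8.66% with the MeOH eluate at 6 h and 12.9% and 9.62% at 24 h, and the share that fell was 1.42% and 8.42% at 6 h and 11.9% and 8.61% at 24 h. The adaptor Irs1 rose at 6 h by 0.36 and 0.41, and Irs2 rose at 24 h by 0.81 (limma adjusted p = 2.06e-06) and 0.45 (limma adjusted p = 0.000126). The insulin receptor gene Insr fell at 24 h by 0.41 and 0.35. Igf1r, the receptor through which Igf2 acts on growth, was called in no comparison (-0.09, 0.20, 0.23 and 0.08).

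Among 9 tested genes for IGF binding proteins and Igf2 mRNA binding proteins, 0 rose and 0 fell with WS1442 at 6 h by limma's adjusted p, and 1 rose and 5 fell with the MeOH eluate. At 24 h 2 rose and 4 fell with WS1442, and 2 rose and 3 fell with the MeOH eluate. The shares over all genes, both directions together, were 5.56% and 17.1% at 6 h and 24.7% and 18.2% at 24 h. Igfbp2 fell at 24 h by 0.64 (limma adjusted p = 2.67e-05) and 0.76 (limma adjusted p = 2.39e-06), while Igfbp3 rose by 0.56 (limma adjusted p = 7.95e-05) and 0.78 (limma adjusted p = 2.71e-06). Igf2bp2, which binds the Igf2 mRNA, fell at 24 h by 0.61 and 0.52. Igfbp4 fell with the MeOH eluate at both times, by 0.86 and 0.66. Igfbp5 was not well above background on any MeOH eluate array at 6 h and was at least 1.08-fold lower there than with DMSO (limma adjusted p = 0.0218).

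Besides Cdkn1c, 6 other inhibitors of cyclin-dependent kinases were tested. Cdkn1a, the inhibitor p21, rose in all 4 comparisons, by 0.40, 0.34, 0.90 and 0.79. Cdkn2a fell with the MeOH eluate at 6 h by 0.45 (limma adjusted p = 0.0222) and with WS1442 at 24 h by 0.52 (limma adjusted p = 0.00677). None of the other 4 was called.

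Imprints are kept by DNA methylation and its binding factors, and 14 of 15 listed genes of that kind were tested. With WS1442, 1 rose and 0 fell at 6 h, where 5.56% of all genes were called, and 3 rose and 3 fell at 24 h, where 24.7% were. With the MeOH eluate, 1 rose and 4 fell at 6 h, where 17.1% of all genes were called, and 0 rose and 1 fell at 24 h, where 18.2% were. Dnmt3l, the cofactor of the de novo methyltransferases, fell by 0.80 with WS1442 at 24 h (limma adjusted p = 1.32e-05). Dnmt3a rose by 0.51 with WS1442 at 6 h (limma adjusted p = 0.0105) and Dnmt3b rose by 0.35 with WS1442 at 24 h (limma adjusted p = 0.00109). Zfp57 and Zfp445, zinc finger proteins that protect imprints, are named after their values were seen. Zfp57 was called in no comparison. Zfp445 was called in no comparison with DMSO, where its largest change was -0.60 with the MeOH eluate at 6 h (limma adjusted p = 0.0669), and it was lower there than with WS1442, by a difference of -0.71 (limma adjusted p = 0.0288). Methylation itself was not measured.

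Markers of cell types moved in the same cultures. The summed level of 10 mesoderm and cardiac progenitor markers, as a log2 value, was 11.45 to 11.52 with DMSO at 24 h, 11.19 to 11.34 with WS1442 and 10.93 to 11.16 with the MeOH eluate, so it ran in the same order as Dlk1. By gene, the 24 h means of Gata4 (9.39, 8.67 and 8.01), Hand2, Kdr and Nkx2-5 ran in that order, DMSO first. Those of Isl1 (7.43, 7.77 and 6.86), Mef2c, T, Mesp1, Pdgfra and Tbx5 did not. The median change of the list was 0.01 and 0.02 at 6 h and -0.16 and -0.27 at 24 h, WS1442 first. In that list 1 rose and 3 fell with WS1442 at 24 h, and 0 rose and 4 fell with the MeOH eluate. At 6 h the counts were 0 and 0 with WS1442 and 1 and 1 with the MeOH eluate. Over all genes, both directions together, 5.56% and 17.1% were called at 6 h and 24.7% and 18.2% at 24 h, WS1442 first. These shares also stand beside the counts of the marker lists below.

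The 5 definitive endoderm markers summed to 12.02 to 12.23 with DMSO at 6 h, 11.19 to 11.34 with WS1442 and 9.90 to 10.01 with the MeOH eluate, in the reverse order of Meg3 probe 1. Most of that sum is Gsc, which read a mean of 11.96, 10.97 and 9.29 in the 3 groups, while the median change of the list was -0.24 and -0.65. At 6 h 0 rose and 1 fell with WS1442, and 0 rose and 3 fell with the MeOH eluate. At 24 h 0 rose in either treatment, and 2 fell with WS1442 and 3 with the MeOH eluate. Sox17 had a mean of 7.46 with DMSO at 24 h, 6.21 with WS1442 and 5.81 with the MeOH eluate, and Cxcr4 had 7.33, 6.63 and 6.32, both in the order of Dlk1. The 24 h sums were 12.19 to 12.21, 12.21 to 12.46 and 11.20 to 11.65, which is not that order.

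Of 7 cardiomyocyte markers 6 were tested, and Myh6 itself was not kept on these day 4 to day 5 cultures. In each treatment 1 rose and 0 fell at 6 h, and 0 rose and 2 fell at 24 h. The gene that rose was Myl7, an atrial myosin light chain, by 0.61 (limma adjusted p = 0.0382) and 1.05 (limma adjusted p = 0.000503), with means of 7.83, 8.44 and 8.88 in the order of Meg3 probe 1. At 24 h Myl7 fell, with changes of -1.17 (limma adjusted p = 0.000156) and -2.02 (limma adjusted p = 8.52e-07) and means of 9.51, 8.35 and 7.49 in the order of Dlk1. Tnnt2, a cardiac troponin, fell at 24 h by 0.35 (limma adjusted p = 0.0461) and 0.51 (limma adjusted p = 0.00852). The means of Nppa ran in the order of Myl7 at 6 h (6.57, 6.68 and 7.06) and at 24 h (7.78, 6.74 and 6.65). Those of Actc1 (14.40, 14.18 and 14.14) and Tnnt2 (6.42, 6.31 and 6.28) ran the other way at 6 h, and those of Tnni3 (3.47, 4.37 and 4.47) did so at 24 h. The median change of the list was -0.09 and 0.06 at 6 h and -0.19 and -0.27 at 24 h. The summed level of the list was 13.84 to 13.89 with DMSO at 24 h and 13.67 to 13.96 over the treated cultures. Most of that sum is Actc1, with 24 h means of 13.72, 13.68 and 13.69.

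The 4 endothelial markers tested summed to 8.55 to 9.08 over all cultures. In that list 1 rose with the MeOH eluate at 6 h and 1 fell with it at 24 h. With WS1442 0 were called by limma's adjusted p, and 1 had an unadjusted p under 0.05, Cdh5 at 6 h, where no array measured it above background. The gene that fell was Cdh5, the endothelial cadherin, with means of 4.91, 4.08 and 2.77 at 24 h, in the order of Dlk1. Cdh5 was above background on 0 of the 3 MeOH eluate arrays and was at least 2.08-fold lower there than with DMSO (limma adjusted p = 0.00134). Pecam1 (7.64, 7.62 and 7.76), Tek (4.35, 4.52 and 4.73) and Sox18 (7.34, 7.55 and 7.52) were not in that order at 24 h. All 3 lay above DMSO with the MeOH eluate, where the median change of the list was 0.15. The 5 primitive blood markers summed to 7.77 to 8.56, with 1 called, the embryonic globin Hbb-bh1, which rose by 1.45 with the MeOH eluate at 24 h (limma adjusted p = 0.0149), although only 1 of the 2 DMSO arrays measured it above background. Gata1, a transcription factor of blood cells, had means of 6.24, 5.88 and 5.31 at 24 h, and neither change was called. The part of these markers in the Dlk1, Mest, Peg3 and Meg3 results was not tested.

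The 8 pluripotency markers summed to 14.69 to 14.76 with DMSO at 6 h, 14.65 to 14.66 with WS1442 and 14.59 to 14.64 with the MeOH eluate. At 24 h the sums were 13.99 to 14.05, 13.87 to 13.95 and 13.95 to 14.11. In that list 0 rose against DMSO, while 1 fell with WS1442 and 3 with the MeOH eluate at 6 h, and 3 and 1 at 24 h. The median change was -0.12 and -0.34 at 6 h and -0.13 and 0.07 at 24 h. The 5 neuroectoderm markers summed to 12.54 to 12.57 with DMSO at 24 h and to 12.83 to 13.00 over the treated cultures. The trophoblast list, with 4 of 6 genes kept, summed to 10.79 to 10.87 with DMSO at 24 h and to 10.26 to 10.54 with treatment. Most of that sum is Krt7, with means of 10.75, 10.35 and 10.21. The other means were 4.85, 4.33 and 3.37 for Cdx2, 4.63, 4.56 and 4.54 for Plac1, and 5.29, 5.24 and 5.18 for Prl3d1. Of 9 visceral endoderm and yolk sac markers, a tissue known for high H19 and Igf2, 4 passed the filter and Ttr, Apoa1, Apob, Amn and Hnf4a did not. By 24 h the 4 tested summed to 10.01 to 10.04 with DMSO and 10.20 to 10.45 with WS1442. With the MeOH eluate the sum was 9.94 to 10.10. Of the 4, 1 rose with WS1442 and 1 fell with the MeOH eluate at 24 h, and 0 were called at 6 h.

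For the 4 members with the smallest adjusted p in the comparisons with DMSO, the genes whose log2 signal ran most like theirs over the 16 arrays, after the mean of each time point was removed, are given as a description. Dlk1 was most like Etv2 (Pearson r = 0.984), Crym (0.978) and Trib3 (0.968). Meg3 probe 1 was most like Chst1 (0.948), Myl1 (0.947) and Lhfpl2 (0.940). Mest was most like Pdlim4 (0.906), 5730408K05Rik (0.892) and Gm5643 (0.887). Peg3 was most like Slc38a4 (0.910), an imprinted gene of the amino acid transporter family, Dlg5 (0.863) and Ints2 (0.858). The points share their arrays, their treatments and 2 slides, so the correlations carry the group differences.

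The start sites of 8 members were held in the RefSeq promoter table (GRCm38.p6), in 15 windows of 300 bases, since several members have more than 1 start. H19 and Cdkn1c were not among them. A window held between 1 and 45 CpG dinucleotides, read on 1 strand, with a median of 13, against a median of 7 over all 32851 windows. The most were in a Grb10 window with 45, and the fewest in a Meg3 window with 1.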

How the data were processed

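Gene expression was measured in 16 cultures on single-colour Agilent arrays labelled with Cy3. The deposited files hold 1 scanner table per array, made by the authors with Agilent Feature Extraction 11.5.1.1, and 1 table of the authors' values. The scanner tables hold processed signal intensity that the software had corrected for background, and the authors' table holds linear intensity, quantile normalized over the arrays, as a comparison with the scanner values showed. Signals flagged as non-uniform were left out, the rest were quantile normalized and put on a log2 scale from the deposited intensity values, and spots of 1 probe were averaged. Quantile normalization gives all arrays 1 distribution, so a shift shared by most genes would not be seen.

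Probes were named through RefSeq accessions, then by the scanner files' gene names. A filter kept 36718 of 60273 probes: those that all arrays of 1 group or more measured well above background. Each gene was read from its brightest kept probe. The 6 group means were fitted with limma 3.58.1 in R 4.3.3 with an intensity trend, and 8 contrasts were tested. The script was tested on simulated data. For the arrays the authors' methods name quantile normalization and a 2-fold limit with p under 0.05, applied to genes common to both treatments. They name Student's t-test for pairwise comparisons in general but no test for the arrays, so the t-test used here is an alternative.

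The member genes and all gene lists were chosen with earlier results of these data known. All members and probes are named, with at most 5 called genes per other list, those of the largest change. Whether equal replicate numbers mark paired cultures is not known. Of 7 same-number pairs at each time, 1 had a correlation of deviations over 0.1. Deviations from a group mean cancel within the group, so these correlations are not independent and cannot exclude pairing. Alternatives changed the normalization, background correction, source, filter, probe choice, arrays fitted, block, test and limits, or left out 1 culture.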

Additional observations from a re-analysis of the deposited data

Results flagged for a closer look

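For 7 results the effect of a treatment differed between 6 h and 24 h by an interaction term of the limma fit (adjusted over all genes). With WS1442 the term was -0.70 for Dlk1 (SE 0.13, limma adjusted p = 0.0042), -0.47 for Peg3 (SE 0.09, limma adjusted p = 0.00613), -0.47 for Mest (SE 0.14, limma adjusted p = 0.0454) and 0.47 for Plagl1 (SE 0.12, limma adjusted p = 0.0216). With the MeOH eluate it was -1.24 for Dlk1 (SE 0.13, limma adjusted p = 2.8e-05), -0.46 for Peg3 (SE 0.09, limma adjusted p = 0.00572) and -0.63 for Mest (SE 0.14, limma adjusted p = 0.0135). The 4 terms for Dlk1 and Peg3 kept their calls with any 1 of the 16 cultures left out. The WS1442 term for Mest kept its call in 4 of 16 such fits, with an adjusted p of up to 0.227 without DMSO 24 h replicate 1. The MeOH eluate term for Mest was not called without DMSO 6 h replicate 2 (limma adjusted p = 0.0686) or DMSO 24 h replicate 1 (limma adjusted p = 0.0803). The Plagl1 term was not called without DMSO 6 h replicate 1 (0.33, limma adjusted p = 0.126), DMSO 24 h replicate 1 (0.47, limma adjusted p = 0.0722) or WS1442 24 h replicate 3 (0.44, limma adjusted p = 0.0536). Each term is built from 4 groups on 2 slides, with each treatment compared with DMSO on its own slide.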

How the results depend on the processing

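No called change turned its direction under any setting run. Counts of called members are given below in the order WS1442 6 h, MeOH eluate 6 h, WS1442 24 h, MeOH eluate 24 h, where the main counts were 3, 3, 5 and 4. The WS1442 count at 6 h was 1 with normexp background correction, with no filter, with the arrays of the time point only and with the row of the slide as a block, and 0 with the mean of the kept probes. The MeOH eluate count at 24 h was 2 with the mean of the kept probes. With the replicate block the counts were 0, 2, 5 and 3, and whether equal numbers mark paired cultures is not known. Student's t-test gave 0 members after Benjamini-Hochberg in all 4 and in both direct comparisons, although 3, 3, 4 and 3 had an unadjusted p under 0.05 and 1 of them, Dlk1 with the MeOH eluate at 24 h, also passed 2-fold. The limits of the study, which ask for more than 2-fold, gave 0, 0, 0 and 1, then 0 and 0 in the direct comparisons, and 0 and 1 for the interactions of WS1442 and the MeOH eluate. In the direct comparison at 6 h, where the main count was 0, scaling to the 75th percentile, normexp and the mean of the kept probes each gave 1 and the arrays of the time point only gave 2. With 1 culture left out the counts ranged from 0 to 3, 1 to 3, 2 to 5 and 2 to 4, then from 0 to 2 and at 2 throughout in the direct comparisons, and from 2 to 4 for both interactions. The lowest WS1442 count at 6 h, 0, came without DMSO 6 h replicate 1, the lowest MeOH eluate count at 6 h, 1, came without either DMSO 6 h culture, and the lowest at 24 h, 2 and 2, came without DMSO 24 h replicate 1. Dlk1 at 24 h was called with both treatments whichever culture was left out. With the mean of the kept probes, H19 (-0.30, limma adjusted p = 0.0364) and Meg3 (0.23, limma adjusted p = 0.0383) were also called after 24 h of WS1442. With 2 DMSO cultures per time, each control weighs heavily. Values at dim probes (Grb10, Mest probes 2 and 3) are limited by signal over background.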
